A study of Mus musculus with 4 samples.

Results

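Circular RNAs made from genes that encode RNA helicases and splicing factors were described in mouse brain after arterial occlusion. A circular RNA (circRNA) is a closed loop in which the end of an exon has been spliced back to the start of the same or an earlier exon. It is counted by sequencing reads that cross this back-splice join. The circRNAs described were those of the deposited count table whose ends both fell on exon boundaries of a protein-coding gene of 11 families, chosen by gene symbol. The families are Ddx, Dhx, Srsf, Hnrnp, Rbm, Rbfox, Celf, Mbnl, Rsrc, Prpf and Sf3. This gave 250 of the 23980 circRNAs of the table (1.04%), made from 68 of the 159 protein-coding genes with such symbols.

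The study compared brain tissue of mice whose middle cerebral artery was permanently closed by an intraluminal filament (permanent MCAO), which models ischemic stroke. It holds 4 libraries. The tissue of 3 of them was taken 3 h after MCAO, from infarct core on the side of the frontal lobe (frontal core), from infarct core on the side of the occipital lobe (occipital core) and from the penumbra, the poorly perfused cortex next to the core. RNA of 6 mice was mixed for each of these 3 libraries. The control was 1 library of cortex from sham-operated mice, matching the core and penumbra regions. How many sham mice were used, when they were sampled, and the strain and age of the mice are not given in these sources. With a single library for each group, no value below carries a replicate error, and a difference between 2 libraries cannot be told apart from a difference between 2 pools of mice.

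Most genes of the 11 families act on RNA themselves. The DEAD-box (Ddx) and DEAH-box (Dhx) proteins use ATP to unwind RNA or to remodel RNA-protein complexes. The heterogeneous nuclear ribonucleoproteins (Hnrnp) and the serine/arginine-rich factors (Srsf, and the related Rsrc) bind nascent transcripts and steer the choice of exons, while Sf3 and Prpf proteins are parts of the spliceosome. The Rbfox, Celf and Mbnl proteins regulate alternative splicing in neurons and muscle, and Rbfox3 is the neuronal antigen NeuN. Several of these proteins control their own messages through alternative exons, and splicing factors of this kind are known to affect how many circles are made.

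Depth was 121393 circRNA reads for the frontal core, 83090 for the occipital core, 96349 for penumbra and 106558 for sham. Values are raw read counts, always given in this order of libraries, or counts scaled to a library total of 1000000 circRNA counts (CPM). Each circRNA has 1 join, so levels need no scaling by length. A count of 3, used as the floor for a library with no read, came to 24.7, 36.1, 31.1 and 28.2 CPM in the same order. Ratios are CPM ratios, and the range in square brackets is a 95% exact conditional (Clopper-Pearson) interval. For each pair of libraries Fisher's exact test (two-sided) was run on each circRNA that reached 10 counts in the pair, with Benjamini-Hochberg adjustment over the whole table. Calls required an adjusted p under 0.05 together with a ratio of at least 2 or at most 0.5. This test compares libraries, not conditions, and intervals and tests cover counting error only. Reads copied by PCR without molecular identifiers are not independent molecules. Coordinates are on GRCm38.

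The circles came from a minority of the genes, and genes with circles were longer than those without. Of the 159 genes, 68 (42.8%) had at least 1 circRNA, compared with 21.9% of the 21992 protein-coding genes. The median gene length was 32.9 kb with a circRNA and 13.1 kb without. All 3 Rbfox genes, with a median length of 422 kb, had circles. At the other end, 2 of 11 Srsf genes (median length 7.23 kb) and 10 of 39 Rbm genes had any. Celf2, a regulator of splicing and translation, held 25 circRNAs, the highest number, and Rbfox1 held 20. Rbm6 and Rbm27 followed with 11 each, Ddx10 with 10, and Rbm33 and Ddx42 with 9 each. A single circRNA came from each of 27 genes, and 5 or more came from each of 16.

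**Figure D1:**
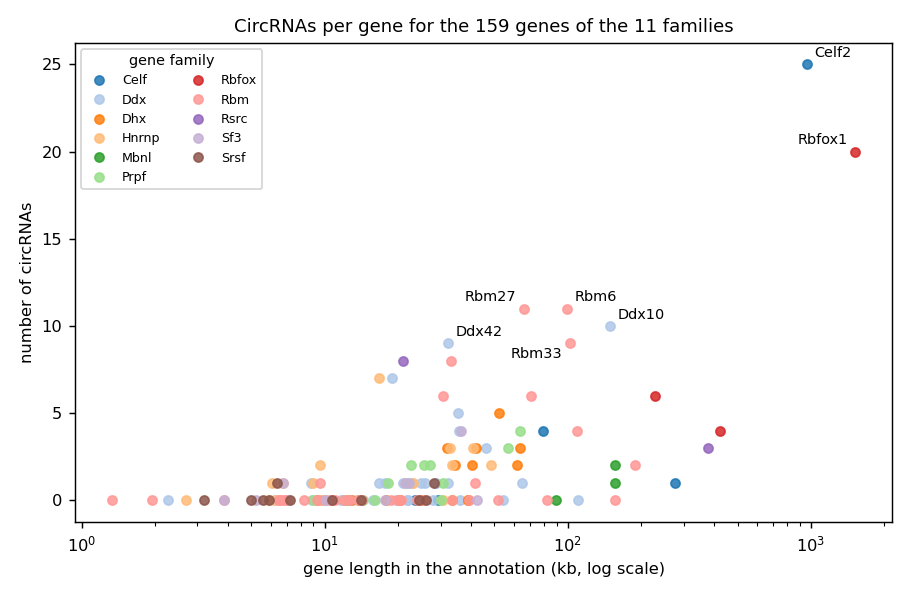
Number of circRNAs (vertical axis) against gene length in kilobases (log scale) for the 159 genes of the 11 families, 1 point per gene, coloured by family. Celf2 with 25 and Rbfox1 with 20 circRNAs lie at the long end, while the 91 genes without a circRNA lie on the baseline.

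Most of the circles were rare, and a few made up most of the reads. The 250 circRNAs had 3971 counts over the 4 libraries, with a median of 5 per circRNA, equal to the median of 5 over all circRNAs that join exon boundaries of a protein-coding gene. Of the 250, 85 had 2 or 3 counts, 78 had 10 or more, 17 had 30 or more and 4 had 100 or more. Reads were found in all 4 libraries for 80 of them (32.0%, compared with 30.4% of all circRNAs) and in a single library for 25. A circle of Hnrnpu alone held 24.1% of the counts, the top 2 held 34.4% and the top 20 held 60.2%.

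The sequences of the circles matter here because they show which part of each protein's message lies between the joined ends. Only the join was observed. The exons between the ends were filled in from an annotated transcript, so a skipped exon or retained intron inside a circle would not be seen. As annotated, the following 4 are spliced circles made only of coding exons, from the start of the first exon to the end of the last. The capitals mark the first and last 10 bases, which are joined to each other in the circle. The Ddx17 circle codes for part of the C-terminal domain of the helicase core. The Rbfox1 circle codes for a part of the RNA recognition motif, the domain that binds RNA, and for what follows it. The circles of Ddx52 and Ddx19a each hold the codons of the ATP-binding motif of a DEAD-box helicase. The sequences are from GENCODE M21 transcripts on the host's strand.
Ddx17 exons 9 to 11 (15:79535957-79537545, minus strand, 233 bases): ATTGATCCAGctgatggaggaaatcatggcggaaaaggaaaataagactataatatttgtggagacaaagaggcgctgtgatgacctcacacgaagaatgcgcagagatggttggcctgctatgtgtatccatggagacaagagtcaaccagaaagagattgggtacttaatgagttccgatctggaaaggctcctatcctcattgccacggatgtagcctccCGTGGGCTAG
Rbfox1 exons 6 to 9 (16:7285478-7306461, plus strand, 262 bases): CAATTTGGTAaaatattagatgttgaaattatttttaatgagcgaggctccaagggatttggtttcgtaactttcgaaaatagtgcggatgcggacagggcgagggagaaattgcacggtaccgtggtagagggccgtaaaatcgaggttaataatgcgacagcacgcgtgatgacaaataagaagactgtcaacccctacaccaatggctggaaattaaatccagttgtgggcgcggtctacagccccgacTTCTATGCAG
Ddx52 exons 5 to 6 (11:83948445-83949694, plus strand, 256 bases): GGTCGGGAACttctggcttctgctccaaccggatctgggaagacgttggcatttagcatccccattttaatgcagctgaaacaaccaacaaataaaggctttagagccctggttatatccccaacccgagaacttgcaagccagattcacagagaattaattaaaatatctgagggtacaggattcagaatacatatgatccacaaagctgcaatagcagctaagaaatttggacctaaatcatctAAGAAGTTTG
Ddx19a exons 6 to 7 (8:110980553-110981093, minus strand, 218 bases): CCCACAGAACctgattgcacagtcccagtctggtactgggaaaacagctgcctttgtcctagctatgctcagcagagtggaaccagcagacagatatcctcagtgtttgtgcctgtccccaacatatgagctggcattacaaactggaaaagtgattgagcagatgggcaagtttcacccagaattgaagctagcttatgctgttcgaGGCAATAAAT

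For other coding circles that the results name, the join alone is shown, since the reads that cross it are what was counted. Each line has the last 20 bases of the circle followed by its first 20 bases, with 6 bases on each side of the join in capitals.
Rbfox1 exon 4 (16:7224311-7224550, plus strand): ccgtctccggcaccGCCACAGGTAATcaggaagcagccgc
Celf2 exons 7 to 11 (2:6585974-6615822, minus strand): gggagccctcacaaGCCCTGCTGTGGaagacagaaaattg
Celf2 exons 6 to 9 (2:6604024-6624719, minus strand): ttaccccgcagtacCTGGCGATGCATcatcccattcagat
Ddx10 exons 13 to 16 (9:53149503-53204530, minus strand): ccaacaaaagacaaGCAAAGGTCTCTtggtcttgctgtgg
Rbm33 exons 8 to 10 (5:28358274-28368313, plus strand): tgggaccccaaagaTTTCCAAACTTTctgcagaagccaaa
Rbm41 exons 6 to 7 (X:139954907-139968599, minus strand): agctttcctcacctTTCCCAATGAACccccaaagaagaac
Sf3b3 exons 16 to 17 (8:110820707-110821590, minus strand): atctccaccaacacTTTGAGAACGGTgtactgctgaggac
Prpf6 exons 7 to 8 (2:181631435-181632087, plus strand): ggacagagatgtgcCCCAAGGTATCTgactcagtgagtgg
Sf3a2 exons 7 to 8 (10:80803583-80803888, plus strand): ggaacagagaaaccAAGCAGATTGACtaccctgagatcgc

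Among the hnRNP genes, 23 circRNAs of 10 hosts held 1106 counts, and nearly all came from Hnrnpu. Hnrnpu encodes a nuclear scaffold protein that binds RNA and chromatin. Its main circle (1:178323134-178325313, minus strand) had 229, 176, 247 and 306 counts, or 1886, 2118, 2564 and 2872 CPM, and was the 26th most abundant circRNA of the whole table. Sham was the highest library and the frontal core the lowest. The join spans exons 4 to 6 of a 6-exon transcript annotated as a target of nonsense-mediated decay, and 30 of its 227 bases are coding. Its 3′ end coincides with the annotated end of that transcript and not with an annotated splice donor, so its place among these circRNAs rests on that transcript. All 7 Hnrnpu circRNAs (1015 counts) share this end, and the table does not settle whether these junctions are true back-splices. A second hnRNP gene, Hnrnpll, a regulator of alternative splicing, followed far below with exons 2 to 8 (17:80044494-80053641) at 5, 9, 10 and 5 counts.

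Rsrc2 and Rsrc1, which encode arginine/serine-rich coiled-coil proteins, held 11 circRNAs and 542 counts. The circle of Rsrc2 exons 2 and 3 (5:123744955-123745589, minus strand, 250 bases) has no coding base. It had 112, 77, 80 and 139 counts, or 923, 927, 830 and 1304 CPM, and ranked 91st in the table. Sham was again the highest, and the 3 MCAO libraries lay close together. The circle of Rsrc1 exons 2 and 3 (3:66994517-66996590), coding in 320 of its 322 bases, had 27, 17, 9 and 26 counts. Penumbra was its lowest library.

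**Figure D2:**
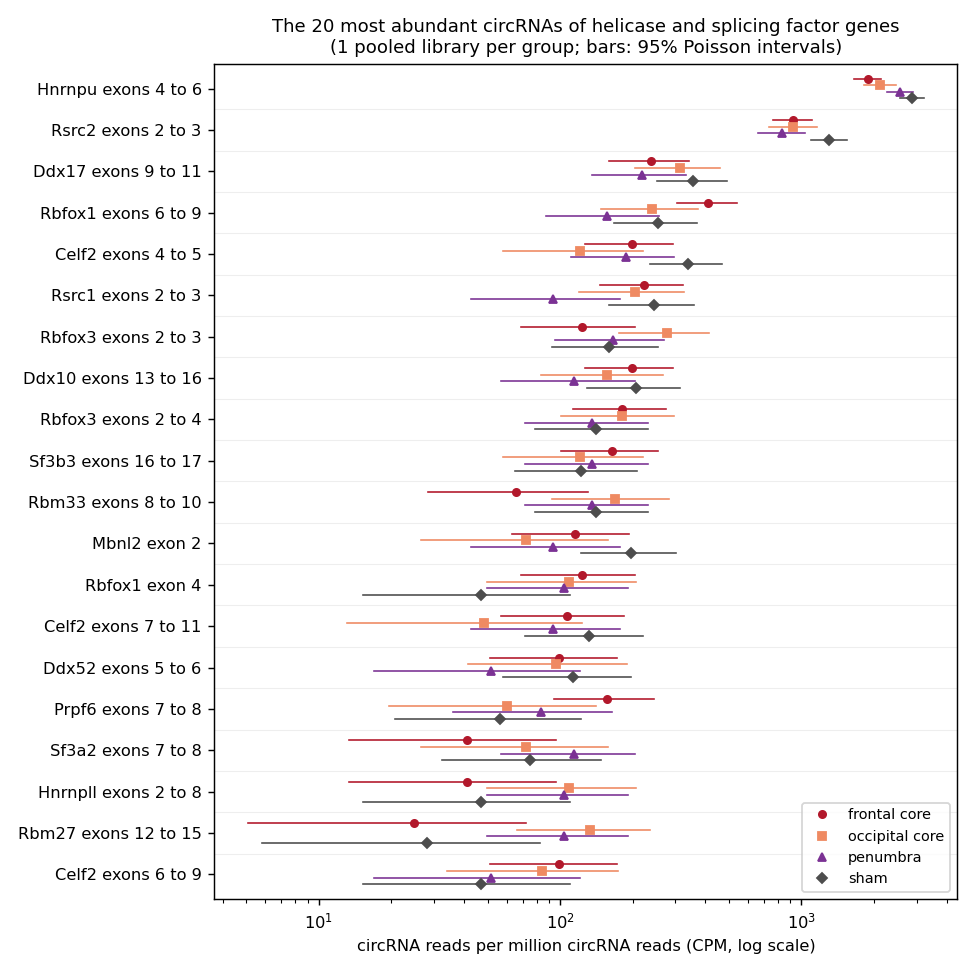
Abundance of the 20 most abundant circRNAs of the 11 families in CPM (log scale), 1 marker per library with its 95% Poisson interval, which covers counting error only. Hnrnpu exons 4 to 6 lies between 1886 and 2872 CPM and Rsrc2 exons 2 to 3 between 830 and 1304, and sham is the highest library for both.

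The helicase genes gave many circles at low counts. The Ddx family had 49 circRNAs of 17 hosts with 586 counts, and the Dhx family 20 circRNAs of 7 hosts with 148 counts. Ddx17, a helicase that acts in transcription and splicing, led with exons 9 to 11, printed above, at 29, 26, 21 and 38 counts. Ddx10, which takes part in ribosome assembly, followed with exons 13 to 16 at 24, 13, 11 and 22 counts, so that penumbra and the occipital core were the lowest. Ddx52 exons 5 to 6 had 12, 8, 5 and 12 counts. Ddx19a, a helicase of messenger RNA export, showed another order, with 4, 3, 14 and 5 counts for exons 6 to 7 and penumbra highest. The leading DEAH-type circle was that of Dhx29, a factor that helps ribosomes scan structured messages, with exons 2 to 8 (13:112929627-112941831) at 5, 1, 2 and 10 counts.

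The regulators of alternative splicing had circles at intermediate levels. The Rbfox family had 30 circRNAs with 474 counts, the Celf family 30 with 410 and the Mbnl family 3 with 60. Rbfox1 exons 6 to 9, which carries part of the RNA-binding domain, had 50, 20, 15 and 27 counts, or 412, 241, 156 and 253 CPM. The frontal core was the highest and penumbra the lowest. Rbfox1 exon 4 had 15, 9, 10 and 5 counts, lowest in sham. Its 240 bases are a multiple of 3, and it is flanked by introns of 415062 and 52474 bases.

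Rbfox3 gave a pair of circles from noncoding 5′ exons that share exon 2. Exons 2 to 3 (11:118670649-118811416) had 15, 23, 16 and 17 counts, and exons 2 to 4 (11:118610159-118811416) had 22, 15, 13 and 15. Scaled to depth, these were 124, 277, 166 and 160 CPM and 181, 181, 135 and 141 CPM, so that the occipital core was highest for the first and level with the frontal core for the other. Celf2 exons 4 to 5 (2:6664115-6721613, 261 of 280 bases coding) had 24, 10, 18 and 36 counts, with sham highest and the occipital core lowest. Celf2 exons 7 to 11 had 13, 4, 9 and 14 counts and Celf2 exons 6 to 9 had 12, 7, 5 and 5. Mbnl2 exon 2 (14:120324794-120325412), which holds the start of the coding sequence of this muscleblind protein, had 14, 6, 9 and 21 counts and was highest in sham.

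The Rbm genes, a group named for their RNA-binding motif, gave 59 circRNAs of 10 hosts, the most of any family, but only 419 counts. Rbm33 exons 8 to 10 had 8, 14, 13 and 15 counts. Rbm27 exons 12 to 15 had 3, 11, 10 and 3 counts, with the occipital core and penumbra above the other libraries. Rbm41 exons 6 to 7 had 10, 5, 7 and 0 counts. Rbm41 encodes a protein associated with the minor spliceosome, and its circle had no read in sham, which allows a level of up to 28.2 CPM (3 counts) there.

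The core spliceosome genes held 7 Sf3 circRNAs with 116 counts and 16 Prpf circRNAs with 105 counts. Sf3b3, a subunit of the complex that helps U2 small nuclear RNP recognise the branch site, led with exons 16 to 17 at 20, 10, 13 and 13 counts. Sf3a2 exons 7 to 8 had 5, 6, 11 and 8 counts and lies between introns of only 73 and 83 bases. Prpf6, a protein of the tri-snRNP, had 19, 5, 8 and 6 counts for exons 7 to 8, with the frontal core highest. The Srsf family was nearly without circles. Its 2 circRNAs had 5 counts in all, and Srsf1 exon 1 (11:88049412-88050095), one of them, had 0, 0, 1 and 2.

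Against sham, none of these circRNAs was called in any of the 3 MCAO libraries, and the 3 most abundant had ratios below 1 in each of them. In the frontal core, 0 of 40 tested were called, with 31 of 4152 (0.747%) called over the whole table. In the occipital core it was 0 of 30 against 0.467%, and in penumbra 0 of 37 against 0.0538%. A count of 0 among so few circRNAs is near these background shares. At an unadjusted p under 0.05 in Fisher's exact test, 6 of 40 passed in the frontal core (background 14.2%), 6 of 30 in the occipital core (12.6%) and 6 of 37 in penumbra (11.3%). These 3 comparisons share the sham library. In bulk tissue, fewer cells of a type and less RNA per cell cannot be told apart.

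Hnrnpu exons 4 to 6 had the smallest p. It was lower in the frontal core than in sham, at a ratio of 0.657 [0.551 to 0.782] and an adjusted p of 0.00135 in Fisher's exact test. This was the 1 circRNA of 40 with an adjusted p under 0.05 at any fold, where the background was 1.01%, and it missed the required 2-fold difference. Its ratio was 0.738 [0.609 to 0.891] in the occipital core (Fisher's exact test, adjusted p = 0.0778) and 0.893 [0.752 to 1.06] in penumbra (adjusted p = 0.652). In edgeR's exact test a biological coefficient of variation of 0.2 was assumed in place of replicates. It called no circRNA of the 11 families in any pair, and 0 of the whole table in the pairs against sham. An unadjusted p under 0.05 was reached by 1 of 40 in the frontal core, 3 of 30 in the occipital core and 0 of 37 in penumbra. The share over all circRNAs at this p was not taken, so these counts have no background.

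Rsrc2 exons 2 to 3 had ratios of 0.707 [0.546 to 0.914] in the frontal core, 0.710 [0.531 to 0.945] in the occipital core and 0.637 [0.477 to 0.844] in penumbra. The 3 intervals lay below 1, but none passed the adjustment over all circRNAs, with adjusted p = 0.145, 0.255 and 0.120 by Fisher's exact test. With a trend of the ratios with GC content removed, they were 0.699, 0.874 and 0.760. The unadjusted p was then 0.364 in the occipital core and 0.0559 in penumbra, by an exact binomial test that allowed for the trend. Celf2 exons 4 to 5 had ratios of 0.585 [0.334 to 1.01], 0.356 [0.158 to 0.733] and 0.553 [0.296 to 1.00], the lowest of these with an adjusted p of 0.124. Rsrc1 exons 2 to 3 had a ratio of 0.383 [0.158 to 0.843] in penumbra (Fisher's exact test, adjusted p = 0.256) and of 0.912 and 0.839 in the frontal core and the occipital core. Mbnl2 exon 2 had ratios of 0.585 in the frontal core, 0.366 in the occipital core and 0.474 in penumbra. For these 4 genes a sham library with 21 to 139 counts stood against MCAO libraries with 6 to 112.

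Other circles had ratios above 1, again without a call. Prpf6 exons 7 to 8 had a ratio of 2.78 [1.07 to 8.50] in the frontal core (Fisher's exact test, adjusted p = 0.261). Rbm41 exons 6 to 7 had 10 counts in the frontal core and no read in sham (Fisher's exact test, adjusted p = 0.0876). With the sham count of 0 set to 3, the ratio was 2.93 [0.753 to 16.5]. Ddx19a exons 6 to 7 had a ratio of 3.10 in penumbra (adjusted p = 0.413), and Rbm27 exons 12 to 15 one of 4.70 in the occipital core (adjusted p = 0.221). Rbfox1 exons 6 to 9 had a ratio of 1.63 [0.998 to 2.70] in the frontal core, 0.950 in the occipital core and 0.614 in penumbra. The intervals at such counts were wide.

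**Figure D3:**
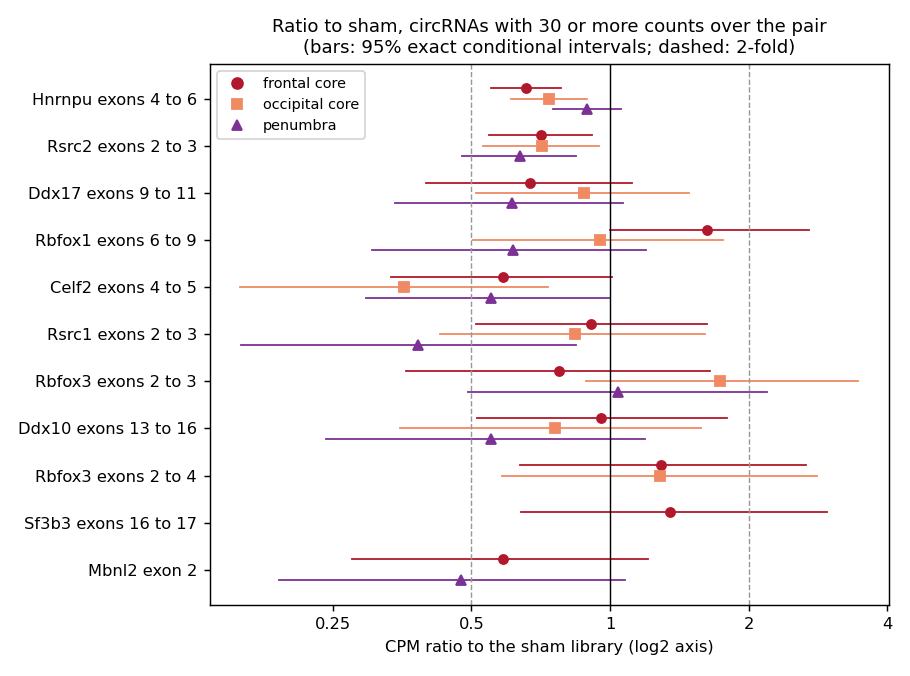
CPM ratio of each MCAO library to sham (log2 axis) for circRNAs that reached 30 counts in the pair, with 95% exact conditional intervals and dashed lines at 2-fold. The 3 intervals of Rsrc2 exons 2 to 3 lie below 1 as plotted, without removal of a GC trend, and the point of Celf2 exons 4 to 5 in the occipital core, at 0.356, is the lowest.

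The median ratio to sham was 0.795 over the 40 circRNAs tested in the frontal core, where the median over all tested was 1.02. Of the 40, 29 had a ratio below 1, beside 47.9% of all tested. The median was 0.790 over 37 in penumbra (1.01 over all tested), with 24 of 37 below 1 (49.6% over all tested). In the occipital core it was 0.956 over 30 (0.962 over all tested), with 18 below 1 (53.1% over all tested). In the frontal core and penumbra these medians lay below those of the table, and in the occipital core the medians were nearly the same. Each circle counts separately here, also where 1 host gave several. Over host sums the median was 0.878 in the frontal core (1.02 over all hosts tested), with 57.6% below 1 (48.4%). In penumbra it was 0.992 (1.02), with 50.0% below 1 (48.2%), so hosts there lay close to the table. In the occipital core it was 0.962 (0.997), with 63.0% below 1 (50.9%). The circRNAs tested are those with enough reads and not all 250. Among all 250, 88 had no read in sham, 13 had reads in all 3 MCAO libraries and none in sham, and 7 had reads only in sham. These counts were not taken over all circRNAs. Most circles were rare, and 1 sham library stood beside 3 MCAO libraries, so no gain or loss can be read from them.

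Between the MCAO libraries the clearest contrast was that of Rbfox1 exons 6 to 9, with 15 counts in penumbra and 50 in the frontal core. The ratio was 0.378 [0.197 to 0.684] with an adjusted p of 0.0534 in Fisher's exact test, just short of a call. It became a call with DESeq2 size factors (adjusted p = 0.0410) and when only circRNAs with 30 or more counts were tested (adjusted p = 0.0247). It was not called by Fisher's exact test with edgeR's trimmed mean factors (adjusted p = 0.0538) or with no count filter (0.279). With a GC trend removed the adjusted p was 0.0712 by an exact binomial test, and edgeR's exact test did not call it. Between penumbra and the occipital core the ratio was 0.647 [0.308 to 1.33]. Hnrnpu exons 4 to 6 had a ratio of 1.36 [1.13 to 1.63] in penumbra against the frontal core (Fisher's exact test, adjusted p = 0.0639). Ddx19a exons 6 to 7 had ratios of 4.41 against the frontal core (adjusted p = 0.148) and 4.02 against the occipital core (adjusted p = 0.569).

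In penumbra against the frontal core 0 of 34 were called, beside 0.934% of the table. In penumbra against the occipital core 0 of 29 were called, beside 0.0606%. The 2 core libraries gave 0 of 31, beside 0.344%. At an unadjusted p under 0.05, 8 of 34 (background 12.8%), 2 of 29 (7.03%) and 4 of 31 (11.8%) passed Fisher's exact test. The smallest p between the cores belonged to Rbm27 exons 12 to 15, with 3 counts in the frontal core and 11 in the occipital core. It was followed by another Hnrnpu circle (1:178323134-178334026) with 13 and 1 counts and by Rbfox3 exons 2 to 3 with 15 and 23. The ratios of the frontal core to the occipital core were 0.187, 8.90 and 0.446, with adjusted p = 0.169, 0.236 and 0.293 by Fisher's exact test. Ddx17 exons 9 to 10, which shares its start with the printed Ddx17 circle, had 10 counts in penumbra against 3 in the frontal core and 2 in the occipital core, with adjusted p = 0.282 and 0.686 by Fisher's exact test.

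When all circles of a gene were summed, Hnrnpu and Rsrc2 kept ratios below 1 and no host gene was called. In the frontal core against sham 0 of 33 hosts were called (background 0.615%), in the occipital core 0 of 27 (1.15%) and in penumbra 0 of 30 (0.0859%). Between MCAO libraries it was 0 of 31 for penumbra against the frontal core (0.583%), 0 of 27 for penumbra against the occipital core (0.0911%) and 0 of 26 between the cores (0.431%). The Hnrnpu sum was 256, 183, 257 and 319. Its ratio to sham was 0.704 in the frontal core (Fisher's exact test, adjusted p = 0.0113) and 0.736 in the occipital core (adjusted p = 0.0445). At any fold, Hnrnpu was the 1 host of 33 (background 1.23%) and the 1 host of 27 (background 2.17%) with an adjusted p under 0.05. Host sums were not tested with a GC trend removed. For the main Hnrnpu circle alone, its removal moved the occipital core ratio from 0.738 to 0.794 (exact binomial test, adjusted p = 0.278). The Rsrc2 sum of 125, 88, 84 and 153 had a ratio of 0.607 [0.460 to 0.797] in penumbra (Fisher's exact test, adjusted p = 0.0575).

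Other host sums showed ratios on both sides of 1. Celf2 had 118, 67, 96 and 112 counts, Rbfox1 97, 61, 62 and 70, Ddx17 47, 43, 43 and 56, and Rbfox3 39, 40, 30 and 33. Rbfox3 had a ratio to sham of 1.55 [0.956 to 2.54] in the occipital core (Fisher's exact test, adjusted p = 0.417). Ddx10 had 50, 22, 21 and 47 counts, with ratios of 0.494 [0.281 to 0.843] in penumbra and 0.600 [0.345 to 1.02] in the occipital core (Fisher's exact test, adjusted p = 0.222 and 0.387). Rbm33, Rbm6 and Rsrc1 had host totals of 102, 93 and 92 over the 4 libraries. The Celf2 and Rbfox1 sums had ratios to sham between 0.767 and 1.22. The Prpf6 sum of 24, 7, 8 and 6 had the ratio 3.51 [1.40 to 10.5] in the frontal core (Fisher's exact test, adjusted p = 0.105), resting on 6 sham counts.

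The genes differed in how they divided their reads among circles. In Hnrnpu 1 of 7 circles held 94.4% of the reads, and in Rsrc2 1 of 8 held 90.7%. In Ddx17 the leading circle held 60.3%, in Ddx10 50.0% and in Rbm33 49.0%. Rbfox3 divided its reads between its 2 main circles, with 50.0% and 45.8%. In Celf2 the leading circle held 22.4% of the reads of 25 circles. Rbfox1 lay between, with 38.6% on exons 6 to 9, and this share was 51.5% [41.2 to 61.8] in the frontal core, 32.8% [21.3 to 46.0] in the occipital core, 24.2% [14.2 to 36.7] in penumbra and 38.6% [27.2 to 51.0] in sham (exact binomial intervals). For Rbfox1 the intervals of the frontal core and penumbra did not overlap. The main Hnrnpu circle held 89.5% of the Hnrnpu reads in the frontal core. It held 96.2% in the occipital core, 96.1% in penumbra and 95.9% in sham. Its upper limit in the frontal core, 92.93%, lay just below its lower limits in penumbra (92.96%) and sham (93.13%). For the leading circles of the other hosts named here, all intervals overlapped. The intervals were not adjusted for the 8 hosts and 6 pairs looked at.

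Circles of 1 gene often shared a splice site. The acceptor of Rbfox1 exon 6 (16:7285478) was used by 6 circles with 48.6% of the Rbfox1 reads. The donor at the end of Celf2 exon 11 (2:6585974) closed 7 circles. In Ddx10 4 circles with 74.3% of the reads ended at the donor of exon 16. In Rbfox3 3 circles with 98.6% of the reads started at exon 2, and all 3 Rsrc1 circles did.

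**Figure D4:**
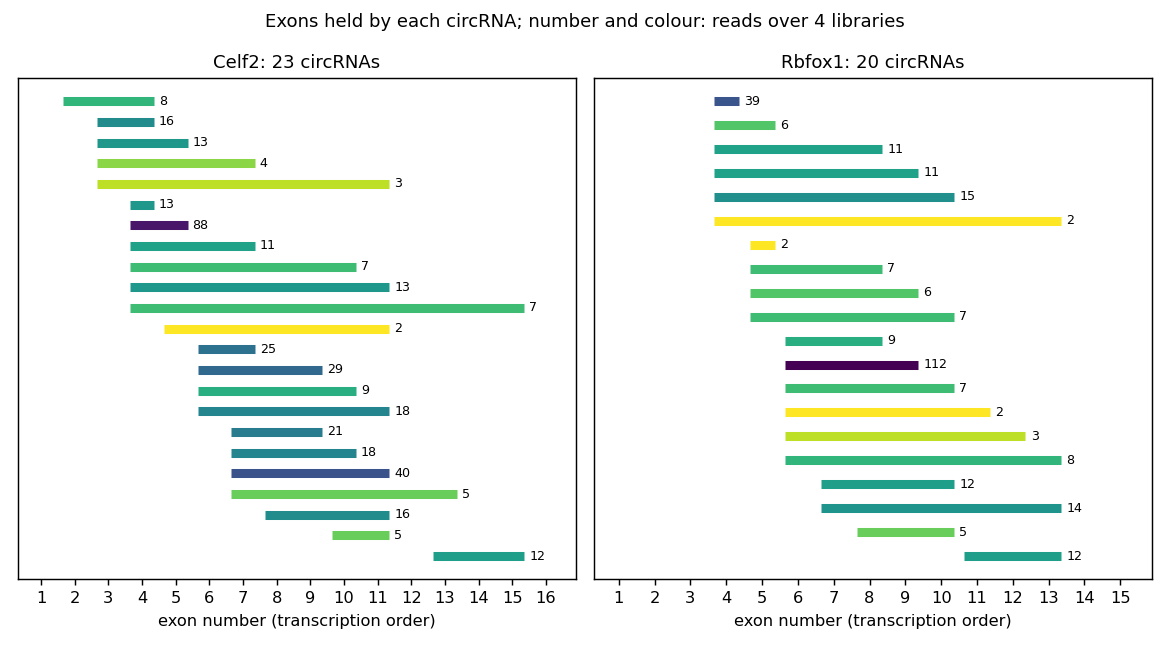
Exons held by the circRNAs of Celf2 (23 of its 25, on a 16-exon transcript) and Rbfox1 (20, on a 15-exon transcript), 1 bar per circRNA, with the exon number on the horizontal axis and the reads over 4 libraries as number and colour. Rbfox1 exons 6 to 9 with 112 reads and Celf2 exons 4 to 5 with 88 stand above many overlapping circles with 2 to 40 reads.

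Counted together, the 250 circRNAs held 0.928% [0.875 to 0.984] of the circRNA reads in the frontal core, 0.948% [0.884 to 1.02] in the occipital core, 0.930% [0.870 to 0.993] in penumbra and 1.09% [1.03 to 1.15] in sham, with exact binomial intervals. The sham share was the highest. Without Hnrnpu exons 4 to 6 and Rsrc2 exons 2 to 3, a step chosen after the values were seen, the shares were 0.647% [0.603 to 0.694], 0.644% [0.591 to 0.701], 0.591% [0.543 to 0.641] and 0.671% [0.623 to 0.722]. The intervals of sham and of each core library then overlapped, and those of sham and penumbra did as well. The number of these circRNAs with a read was 187, 172, 165 and 162.

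**Figure D5:**
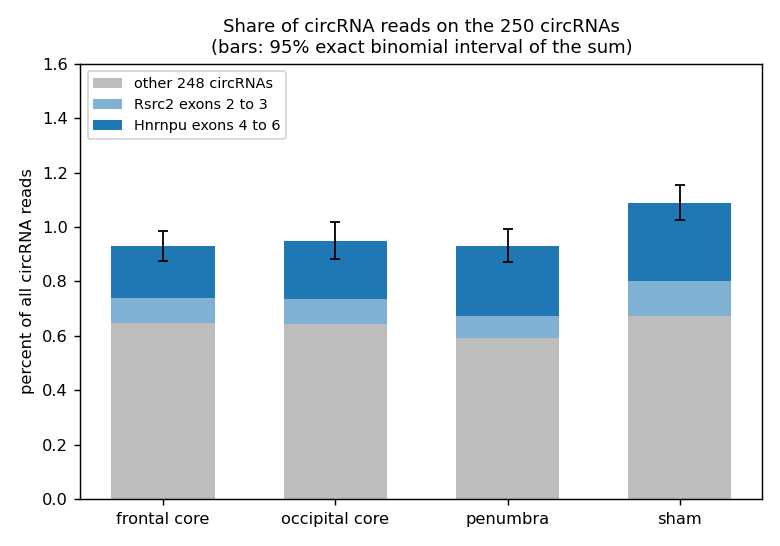
Percent of all circRNA reads of each library on the 250 circRNAs, stacked as Hnrnpu exons 4 to 6, Rsrc2 exons 2 to 3 and the other 248; error bars are 95% exact binomial intervals of the sum. Sham reaches 1.09% and the MCAO libraries 0.928% to 0.948%, while the grey part lies between 0.591% and 0.671%.

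In structure the circles resembled those of other genes but came from shorter stretches of genome. For 239 of the 250 (95.6%) both ends were splice sites of 1 annotated transcript, compared with 98.5% of all protein-coding circles with both ends on exon boundaries. By the annotated exons between their ends, these 239 had a median of 4 exons, 531 spliced bases and a genomic span of 7442 bases. The median span over all such circles was 12142 bases. The median intron before the circle was 4576 bases, against 8362 over all, and the median intron after it was 3466 bases, against 6703. Single-exon circles were 5.86% (4.08% over all), and 23.0% began at exon 2 (23.9%). The annotated start codon lay inside 15.9% (12.8%). Of the 231 on coding transcripts, 180 (77.9%) were made only of coding bases, against 83.7% of all such circles on coding transcripts.

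Known motifs were counted in the spliced circles of 200 to 600 bases, on the host's strand and across the join. The exons between the ends were again those of the annotation. TGCATG, the element that Rbfox proteins bind, was present in 13 of 126 circles (10.3%) and in 9.23% of 10011 protein-coding circles of these lengths. ACTAAC, the core element of the splicing regulator Quaking, was present in 3 of 126 (2.38%), compared with 2.79%. Both shares were close to those of the other circles. A match is a description of the letters and not a binding site.

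A list of 90 other splicing and RNA-binding genes gave a similar number of circles. Of these genes, 69 had circRNAs, 258 in all, with 4302 counts. Abundant ones were Elavl3 exons 2 to 3 (103, 83, 96 and 100 counts), Nova2 exons 2 to 3 (83, 52, 72 and 56), Cpsf6 exons 2 to 10 (48, 41, 38 and 47) and Elavl2 exons 2 to 3 (29, 21, 49 and 41). No circRNA of this list was called in any pair. Against sham, 55 were tested in the frontal core, 37 in the occipital core and 48 in penumbra. Between MCAO libraries it was 56 for penumbra against the frontal core, 45 for penumbra against the occipital core and 53 between the cores. Over all circRNAs tested, 0.0538% to 0.934% were called in a pair, so a count of 0 is near the background. The median ratio to sham over the circRNAs of this list was 1.30 in the frontal core, 1.09 in the occipital core and 1.24 in penumbra. These lay above 1 where the circRNA medians of the 11 families were below. Host sums of this list were not compared.

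The circles of marker genes gave the tissue. All 10 neuronal marker genes had circles, with a summed 20685, 22855, 23591 and 22889 CPM, so the sham level lay within the range of the MCAO libraries. Oligodendrocyte markers (2 of 8 genes) summed to 255, 397, 363 and 178 CPM, astrocyte markers (3 of 7) to 173, 144, 208 and 122, and markers of striatal neurons (2 of 6) to 338, 265, 176 and 178. Oligodendrocyte and astrocyte circles were both lowest in sham, on 31, 33, 35 and 19 counts and on 21, 12, 20 and 13 counts. The oligodendrocyte counts came from Qk and St18, and Qk is also in the list of other RNA-binding genes. None of 6 microglial genes had a circle, and 1 of 6 endothelial and 1 of 4 precursor genes did, with at most 3 counts in a library. Mbp, Gfap, Aqp4 and Cx3cr1 were among those without a circle, so circRNA counts say little on the amount of these cells. Their part in the differences from sham was not tested.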

How the data were processed

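The 4 libraries, 1 per group, were placed in groups by their tissue or treatment label. The deposited table holds whole-number read counts per circRNA, without normalization, each with at least 2 counts over the 4 libraries. The authors named build mm9, TopHat2 2.0.10 and, with no version, Bowtie, per the submitters' processing notes. The circRNA caller is not given in the sources used here. The coordinates fit GRCm38: 89.1% of starts lay on exon starts of GENCODE M21, against 0.192% when moved by 1 base. The deposited FPKM table was not used.

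Hosts and exon numbers were assigned from GENCODE M21. The table gives no strand, so genes that overlap in opposite directions cannot be distinguished. For 1 circRNA (Rbm4 exon 3) there was more than 1 candidate host. Another 47 junctions of these genes (396 counts) with 1 end or no end on a boundary were left out. Counts were scaled to each library's circRNA total and tested as described, with scipy 1.17.1, pandas 2.3.3 and numpy 2.4.6 in Python 3.11.15, and with edgeR 4.0.16 and DESeq2 1.42.0 in R 4.3.3 for alternatives. Fisher's exact test was also run on simulated pairs of libraries that held counting error only. That run says nothing on differences between pools of mice. No genome sequence was used here, so the planned searches of flanking introns were replaced by a motif search in spliced circles.

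Named circRNAs were the 20 most abundant, the most abundant of each family, in each pair any called and the 3 with the smallest p, and, against sham, the 3 highest and 3 lowest ratios at 30 or more counts. Of the other RNA-binding genes the 5 most abundant circRNAs were to be named, of which 1 is not reported here. Named hosts were the 10 with the largest sums and those with the most circRNAs. The Prpf6 host sum, Ddx17 exons 9 to 10 and the Ddx42 count were singled out after their values were seen. The circRNAs and gene lists were chosen with earlier results of these data known.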

Additional observations from a re-analysis of the deposited data

How the results depend on the processing

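Of 147 values of named circRNAs under alternative settings, 144 kept their direction and their side of the rule for a call, which needs both the adjusted p and the 2-fold ratio. Settings that changed only the count filter left each ratio as it was, so the direction could not change under them. The adjusted p of Hnrnpu exons 4 to 6 alone crossed 0.05 under some settings, never with a 2-fold ratio. In the occipital core against sham, Fisher's exact test gave 0.00896 with the trimmed mean factors and 0.0338 at 30 or more counts. There it gave 0.0641 with DESeq2 size factors and 0.470 with no count filter. An exact binomial test with the GC trend removed gave 0.278 there (ratio 0.794). In penumbra against the frontal core Fisher's exact test gave 0.0346 with the trimmed mean factors and 0.0319 at 30 or more counts. It gave 0.0817 with DESeq2 size factors and 0.335 with no count filter. With the GC trend removed, an exact binomial test gave 0.0112 in that pair. Rbfox1 exons 6 to 9 became a call in penumbra against the frontal core with DESeq2 size factors (ratio 0.372) and at 30 or more counts, so that the number called in this pair rose from 0 to 1 under each of these settings; testing fewer circRNAs loosens the adjustment. Rbfox3 exons 2 to 3 in penumbra against sham went from a ratio of 1.04 to 0.856 when a trend with GC content was removed, and neither value passed the test; the cause was not tested. The share of reads on the 250 circRNAs, with sham given last and the frontal core first, was 1.02%, 1.05%, 1.03% and 1.20% over circRNAs that join exon boundaries of 1 gene, 1.00%, 1.04%, 1.02% and 1.17% with junctions of 1 matched end added, and 0.647%, 0.644%, 0.591% and 0.671% without the 2 most abundant circRNAs, a step added after the data were seen. Sham was the highest under each of these 3 settings. edgeR's trimmed mean scaling moved the median ratio of all circRNAs by -0.11 on the log2 scale in the occipital core against sham and by 0.12 in penumbra against the occipital core. No circRNA of the 11 families was called by edgeR's quasi-likelihood test with both core libraries as 2 samples of 1 group. Over the whole table it called 0 against sham. Of the 11 families 3 of 56 had an unadjusted p under 0.05 against sham, and the share over all circRNAs at this p was not taken. Over the whole table the number called in the frontal core against sham went from 31 to 4 with no count filter, in the occipital core against sham from 16 to 3, and in penumbra against the frontal core from 37 to 4; with edgeR's exact test these became 0, 0 and 1. In the occipital core against sham it was 6 with the GC trend removed and 26 at 30 or more counts, and in penumbra against sham it went from 2 to 6 and 8. Depth limits the rare circRNAs, most of which had too few reads to be tested. No paired analysis was possible because each group has 1 library, and no library could be left out for the same reason.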
